A study of Caenorhabditis elegans with 2 samples.

Results

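The genes described here encode the 8 named proteins of the DREAM complex of Caenorhabditis elegans, lin-54, lin-35, lin-9, lin-37, lin-52, lin-53, efl-1 and dpl-1, out of 19973 protein-coding genes on the nuclear chromosomes. They were chosen by membership of the complex after the peak signal at lin-54 had been seen, and the same peak lists are used below, so their signals and counts are given as a description with no test. The genome-wide binding of MADF-9, a protein with a MADF domain, a fold that many DNA-binding proteins carry, was measured by ChIP-seq, in which DNA that comes down with an antibody is sequenced. All worms were of strain RW12324, in which CRISPR had placed TY1, EGFP and 3xFLAG tags at the madf-9 locus on chromosome IV (allele st12324), and whole L4 larvae were taken 48 hours on from starved L1 larvae. An antibody against GFP was used on chromatin sonicated to between 200 and 800 bp. The 2 biological replicates formed 1 group, with no second condition, and a control library was not analysed here. Whole worms mix every tissue, so the cells in which a site was occupied cannot be told apart.

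DREAM is named for its parts, the DP and E2F proteins, an Rb-like pocket protein and the MuvB core. E2F and DP proteins bind DNA as a pair, the pocket protein bridges them to the core, and LIN-54 of the core contacts DNA itself at a short element known as CHR. The complex is best known for holding cell cycle genes off in cells that do not divide, and in C. elegans also for keeping germline genes silent in somatic cells. Its genes are counted among the synMuv B genes, a class found through mutants that form extra vulvae together with a mutation of class A. The peaks below show where MADF-9 was bound at the genes that encode these proteins, and not where the DREAM complex itself was bound.

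A gene was counted as bound where the summit of a peak in the set called between the replicates fell in its window, from 1000 bp upstream to 200 bp downstream of a transcript start, or in the gene body. Peaks entered that set at a deposited score of at least 830, which stands for an irreproducible discovery rate (IDR) of at most 0.01, the IDR being an estimate of how often regions this strong fail to recur in a second input. The set held 1637 peaks, and the ranked list behind it, which adds the weaker regions, held 86867, with no region in the window of 3465 of the 19973 genes. Summits fell at 4 of the 8 DREAM genes, lin-54, lin-35, lin-9 and lin-53, beside 6.39% of all protein-coding genes, or 1276 of 19973. Each of the 4 summits lay in the promoter, where the share of all genes was 4.71%. The windows of the 8 genes had a median length of 3507 bp, against 3027 bp over all genes and 4360 bp over the bound ones, so a longer window gives more room for a summit. By the rule the contrast is not independent of the choice of genes, and nothing further is read from it.

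The sequence around the strongest region is shown for 3 of the genes, because they carry a word of the type that E2F proteins bind and together cover a peak shared with a neighbour, a peak of a single gene and a region that did not pass. They were read from the RefSeq copy of WBcel235, the assembly also called ce11, and each is written 5′ to 3′ on the strand of the gene with bases that belong to no exon. Capitals mark the E2F-type words TTTCGCGC and TTTCCCGC, the CHR-type word TTTGAA and the word AGACGCAG, on either strand. The lin-54 run is chrIV:13240652-13240838 on the plus strand, with the summit at base 37. The lin-9 run is chrIII:8904146-8904445 on the minus strand, with the summit at base 151. The efl-1 run is chrV:16965676-16965972 on the minus strand, also with the summit at base 151.
lin-54: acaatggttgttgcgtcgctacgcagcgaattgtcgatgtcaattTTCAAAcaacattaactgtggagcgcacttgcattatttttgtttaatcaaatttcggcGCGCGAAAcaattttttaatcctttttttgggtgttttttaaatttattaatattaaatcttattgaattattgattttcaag
lin-9: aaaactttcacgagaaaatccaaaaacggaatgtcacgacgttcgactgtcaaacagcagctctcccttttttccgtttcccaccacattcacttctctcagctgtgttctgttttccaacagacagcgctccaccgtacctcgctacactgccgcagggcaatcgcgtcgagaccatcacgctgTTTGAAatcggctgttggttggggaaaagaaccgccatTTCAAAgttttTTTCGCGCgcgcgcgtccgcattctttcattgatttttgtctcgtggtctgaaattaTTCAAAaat
efl-1: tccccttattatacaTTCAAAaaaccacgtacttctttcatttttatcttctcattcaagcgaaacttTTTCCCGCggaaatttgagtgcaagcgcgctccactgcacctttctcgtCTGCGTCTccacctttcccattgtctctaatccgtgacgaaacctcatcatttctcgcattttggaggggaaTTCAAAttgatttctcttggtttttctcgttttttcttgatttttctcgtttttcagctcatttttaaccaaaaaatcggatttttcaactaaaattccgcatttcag

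The lin-54 gene (WBGene00003037), which encodes the DNA-binding protein of the MuvB core, carried the strongest peak of the 8. It lies on chromosome IV from 13241044 to 13243401 on the plus strand, and the peak spans 13240601 to 13240748 with its summit at 13240688. The authors' signal for the peak, in the pooled data, was 289, which ranked 40 among the 1637 peaks, within the top 2.44%. The signal was 175 in replicate 1 and 114 in replicate 2, a mean of 145 ± 43.6 (SD, n = 2). Replicate 1 was thus higher, by 1.54 times, while the median ratio over the 1603 peaks with a value in both replicates was 1.18 and the middle 80% of peaks ran from 0.805 to 1.72. The replicates' summits lay 17 bp apart. Each replicate also passed in its own run, which compared parts of that replicate's data: the inputs gave 89.8 and 85.0 in replicate 1 and 61.9 and 55.5 in replicate 2. The next highest of the 4 ranked regions in the lin-54 window had a joint signal of 37.3, in a coding exon. At 148 bp the interval was also narrower than most, since 1488 of the 1637 peaks, or 90.9%, were 260 bp wide.

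The lin-54 summit cannot be assigned to lin-54 alone. It lay 356 bp upstream of the lin-54 start and 37 bp upstream of rpl-12, which encodes a protein of the large ribosomal subunit and is read in the opposite direction, with 392 bp between the genes. Where each passing summit was given only to the nearest start, lin-54 lost its peak to rpl-12, and 3 of the 8 genes remained bound, beside 6.88% of all genes. The peak interval reaches into the first exon of rpl-12.

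The pocket protein gene lin-35 (WBGene00003020), the worm counterpart of Rb, had the weakest of the 4 passing peaks. The peak lies on chromosome I from 5807411 to 5807670, 168 bp upstream of the lin-35 start, in the 417 bp between lin-35 and the divergent gene vps-51, whose start is 250 bp from the summit. Its joint signal of 106 ranked 587 of 1637, in the top 35.9%. The signal was 58.6 in replicate 1 and 42.7 in replicate 2, a mean of 50.7 ± 11.3 (SD, n = 2), with summits 31 bp apart. Replicate 1 passed in its own run and replicate 2 did not, with a score of 502 there and inputs of 13.9 and 26. The lin-35 window, 8929 bp long, held 11 ranked regions, the most of any of the 8 genes, and no other of them passed.

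Of the 4 remaining genes of the MuvB core, lin-9 and lin-53 were bound and lin-37 and lin-52 were not. LIN-9 is a scaffold of the core. Its gene (WBGene00002998) had a peak on chromosome III from 8904165 to 8904424, 164 bp upstream of the start and in no other gene's promoter, with a joint signal of 160 and rank 217. The signal was 81.1 in replicate 1 and 72.4 in replicate 2, the closest pair among the 4 bound genes, with a mean of 76.8 ± 6.16 (SD, n = 2). LIN-53 is a histone-binding protein that also serves in other chromatin complexes. Its gene (WBGene00003036) had a peak on chromosome I from 9619848 to 9620107, 218 bp upstream of its start and 249 bp from that of the divergent gene nra-2, with a joint signal of 164 and rank 204. The signal was 104 in replicate 1 and 78.5 in replicate 2, a mean of 91.3 ± 18.1 (SD, n = 2), and the summits were 72 bp apart. Both replicates passed in their own runs at lin-9 and at lin-53. The paralog rba-1, which lies next to lin-53, reached a joint signal of 18.9 at most. A region in a lin-53 coding exon also had a joint signal of 18.9, so both values may come from the same region.

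LIN-37 and LIN-52 are small subunits of the core, and their genes each lie a short way downstream of a gene on the same strand, 60 bp from ZK418.5 for lin-37 and 126 bp from ZK632.9 for lin-52. The highest joint signal at lin-52 was 43.0, in an intron, with a score of 344. Its highest values in the replicates, 23.8 and 20.3, lay at different places, 7 and 457 bp upstream of the nearest lin-52 start. At the joint region replicate 2 gave 19.8. At lin-37 the highest joint signal was 28.9, in a coding exon of ZK418.5 with a score of 82, and the highest replicate values, 28.8 and 18.99, lay at different places. Neither upstream neighbour had a passing summit, with highest joint signals of 50.4 at ZK418.5 and 51.0 at ZK632.9. The nearest passing peak was 68845 bp from lin-37, in an exon of sls-2.16 that lies within an intron of glr-2, and 24581 bp from lin-52, where mrpl-36, a mitochondrial ribosomal protein gene, had the nearest start.

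The partners that contact E2F sites, efl-1 and dpl-1, had no passing summit in the set called between the replicates. EFL-1 is the E2F protein of the complex and DPL-1 its DP partner. The strongest efl-1 region lies on chromosome V from 16965692 to 16965951, 147 bp upstream of the start, with a joint signal of 60.8 and a score of 311. Replicate 1 gave 40.2 there and passed in its own run with a score of 884, at rank 954 of 1002, while replicate 2 gave 18.2 there with a score of 32. The highest replicate 2 value, 19.01, lay 275 bp inside the gene. The ratio of the highest values, 2.12, thus compares different places and cannot be set against the ratios at passing peaks. Replicate 1's own set thus held 5 of the 8 genes, with efl-1 added, beside 4.18% of all genes, and replicate 2's own set held 3, without lin-35, beside 3.38%. At dpl-1 the highest joint signal was 37.8 with a score of 120, in a coding exon inside the antisense gene T23G7.2. The replicates' highest values, 23.9 and 22.0, lay at different places, 260 bp upstream of the start and 263 bp inside the gene. At the joint region replicate 1 gave 14.1. The nearest passing peak was 309793 bp from efl-1, at the W06G6.20 promoter and in exons of WBGene00014547 and W06G6.18. For dpl-1 it was 39283 bp away, in introns of ZK1067.4 and WBGene00014640 and in an exon of ZK1067.10.

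**Figure D1:**
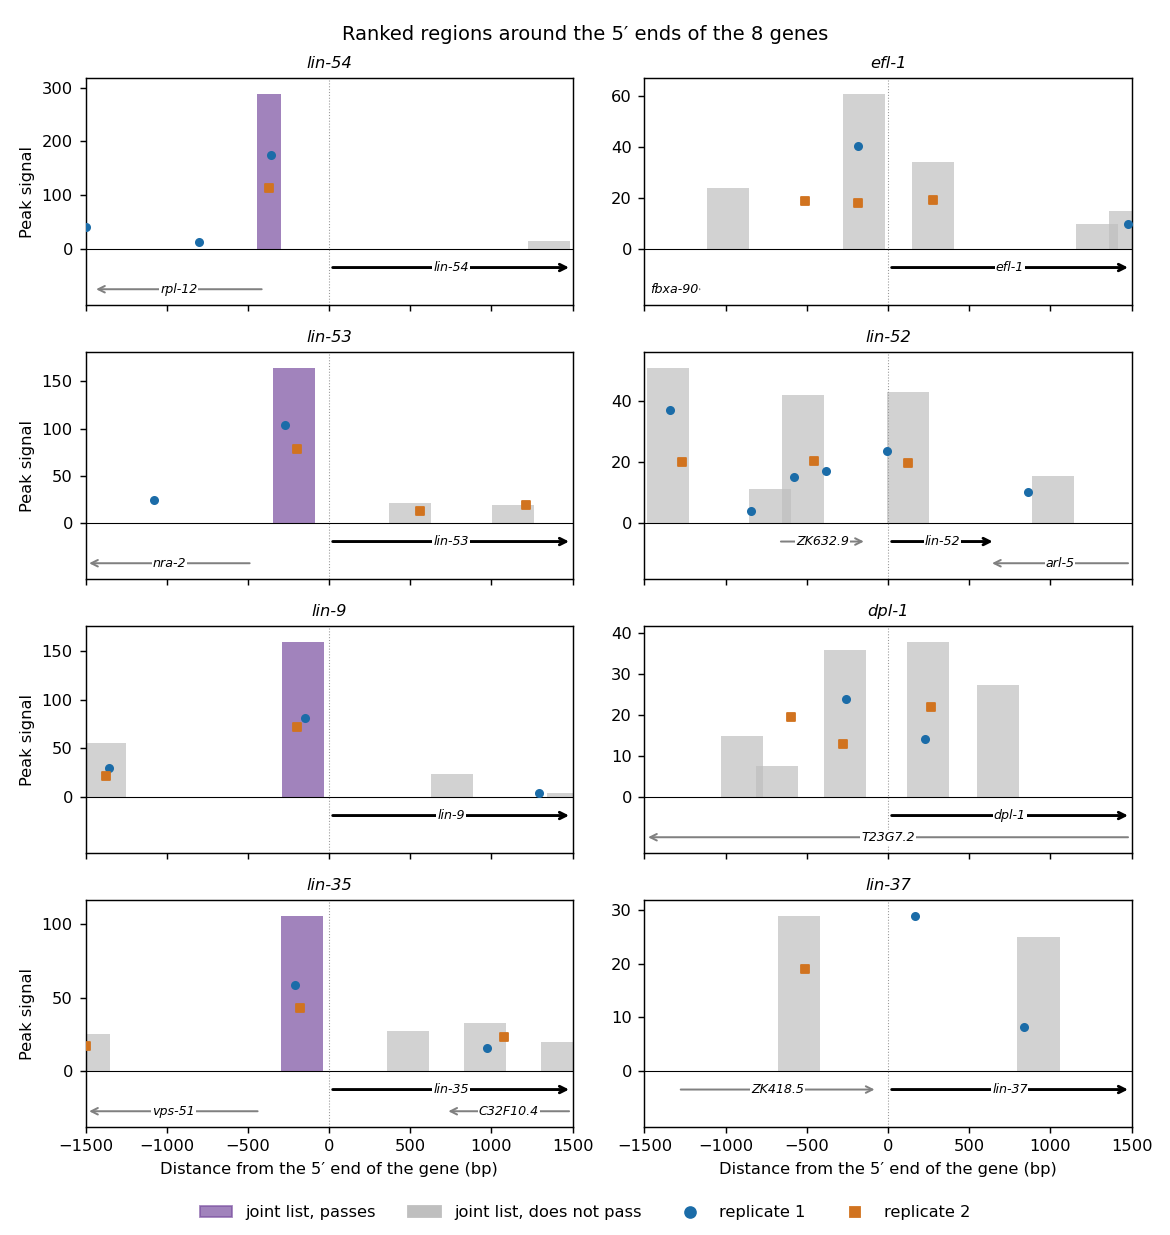
Ranked regions around the 5′ end of each DREAM gene. Each panel plots the authors' peak signal against distance from the 5′ end in bp, in the direction of the gene, with bars for regions of the joint list (purple where they pass, grey where they do not), circles for replicate 1, squares for replicate 2 and arrows for genes. Purple bars stand upstream of lin-54, lin-53, lin-9 and lin-35, and the lin-54 bar reaches 289 beside the start of rpl-12. The signal axes differ between panels.

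The plot of regions around the 5′ ends shows where the values above lie. At the 4 bound genes both replicates had a region under the passing peak, 150 to 373 bp upstream of the start, and the other regions in those panels were lower. At efl-1 both replicates also had a region under the strongest grey bar, at unequal heights. At lin-37 the replicates' points do not coincide.

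The order of the 8 genes by their highest region was alike in the replicates at the top and loose at the bottom. Over all genes, those with no region counted as 0, the median highest signal was 18.5 in replicate 1 and 16.7 in replicate 2, and the values of the 8 genes ran from 23.8 to 175 and from 18.99 to 114. All 8 genes thus lay above the median of all genes in each replicate, in windows whose median length was also the greater. By joint signal 7 of them did, and lin-37, with 28.9, lay below the median of 32.3. Neighbours in the order had values that did not overlap at lin-54 over lin-53, where the lower lin-54 value of 114 exceeds the higher lin-53 value of 104. The same held at lin-9 over lin-35, with 72.4 against 58.6, and at lin-35 over efl-1, with 42.7 against 40.2. Each pair sets a replicate 2 value against a replicate 1 value. The scale of the 2 lists is unstated and the median ratio over peaks was 1.18, so these gaps do not measure a spread. The values overlap between lin-53 and lin-9, efl-1 and lin-52, lin-52 and dpl-1, and dpl-1 and lin-37. Among all genes, lin-54 held place 30 by joint signal, lin-53 place 187, lin-9 place 197 and lin-35 place 548. The place of efl-1 was 1185 in replicate 1 and 7863 in replicate 2.

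**Figure D2:**
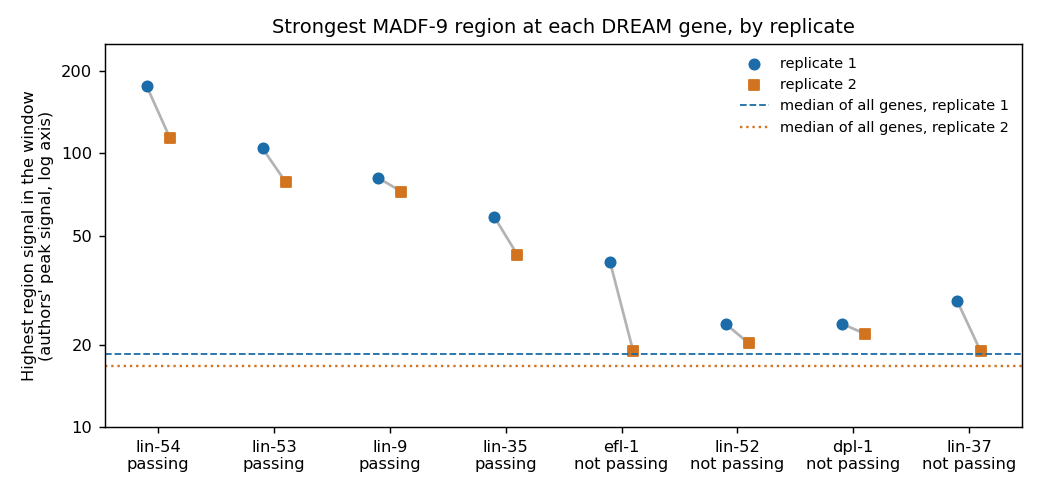
Highest region signal in the window of each DREAM gene, by replicate, on a log axis. Circles are replicate 1, squares are replicate 2, and the lines mark the medians over all protein-coding genes, 18.5 and 16.7. The 4 genes with a passing summit lie between 42.7 and 175, and the widest gap between replicates is at efl-1, with 40.2 and 19.01.

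In the joint list the threshold fell in a gap between the bound and unbound genes, which the runs on each replicate did not show, with efl-1 passing at 884 in replicate 1 and lin-35 failing at 502 in replicate 2. The weakest passing joint region by signal, at lin-35, had a score of 1000, at which the score stops, and the highest failing ones were lin-52 with 344 and efl-1 with 311. The score does not follow the signal exactly, since efl-1 had the higher signal of these and the lower score.

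**Figure D3:**
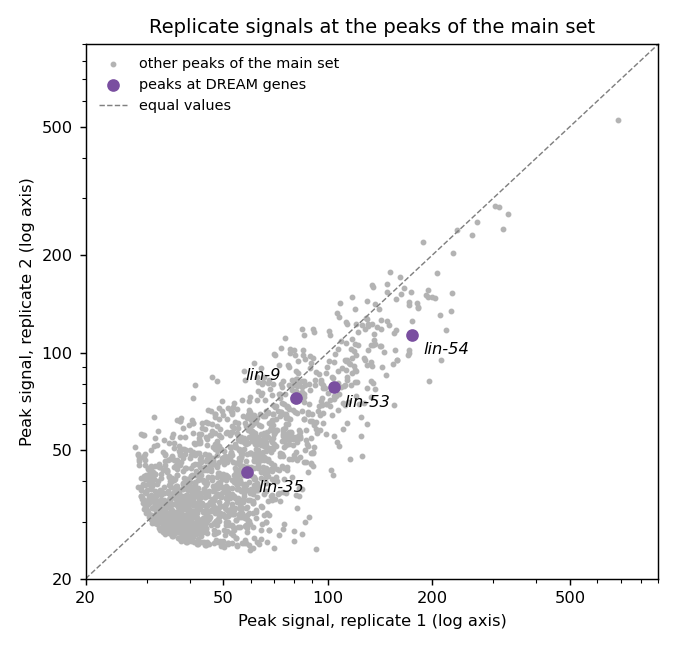
Signal in replicate 2 against replicate 1 at the peaks called between the replicates, both on log axes. Grey points are other peaks, purple points the peaks at the 4 bound DREAM genes, and the dashed line marks equal values. All 4 purple points lie below the line, with lin-54 at 175 and 114.

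In the plot of replicate signals lin-54 lies toward the upper end and the other 3 peaks among the mass of points, all below the line of equal values. Sharing of a promoter was a further feature of these peaks. It was read from the same summits that the rule used, so it is not independent of the choice of genes. Of the 785 summits in the promoter of a protein-coding gene, 208, or 26.5%, were in the promoters of several genes. Among the passing summits at DREAM genes it was 3 of 4, at lin-54, lin-35 and lin-53. The 26.5% counts each summit once, whereas these 4 were reached through their genes. A shared summit can be reached through each of its genes, so the 2 shares are not alike and no excess is read from them. By the joint summits another gene had the nearer start for lin-54 alone of the 4, and for 215 of all 941 promoter-bound genes, or 22.8%. This was not fixed across replicates. In replicate 1 the lin-53 summit lay 272 bp from lin-53 in the 466 bp gap, nearer to nra-2. The replicate 1 summit at lin-35 lay 208 bp from its start in the 417 bp gap, about midway to vps-51. No passing DREAM peak lay close to a tRNA gene, the nearest being 14141 bp from the lin-53 peak.

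E2F-type words, TTTCCCGC, TTTGGCGC, TTTCGCGC and TTTGCCGC, were searched on both strands within 100 bp of the summit of the strongest region. They were found at 4 of the 8 genes, as TTTCGCGC at lin-54 and lin-9 and as TTTCCCGC at lin-53 and efl-1. The share was 6.35% over the 1637 peaks and 3.64% over windows of the same length, from 300 to 100 bp upstream of each gene. These measures are unlike. The windows of the 8 genes centre on the strongest region, passing or not, whereas the peaks all passed and the promoter windows are fixed in place. The same holds for the other words. In each case the word stood off the summit, 68 bp from it at lin-54, 84 bp at lin-9, 74 bp at lin-53 and 75 bp at efl-1. None was thus found within 50 bp, a distance at which no share over all peaks is given. In the lin-54, lin-9 and lin-53 sequences it lay between the summit and the gene, and in efl-1 on the upstream side.

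The CHR-type words TTTGAA and TTCGAA stood near the summits of 6 of the 8 genes, beside 38.3% of all peaks and 56.4% of promoter windows. The word AGACGCAG was present at efl-1 alone, 26 bp from the summit, beside 11.4% of all peaks and 2.48% of promoter windows. The word CTGAGCTA was at none of the 8, beside 5.31% and 0.210%. GC content around the summits ran from 35.3% at lin-52 to 53.2% at lin-9, and the median was 46.3% over the peaks and 33.8% over promoter windows. A word in such a window is a match of letters and shows neither a site nor the binding of a factor.

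In the lists of related genes the share with a passing summit ranged from 0 to 31.25%, beside the 6.39% of all genes. Among other synMuv B and heterochromatin genes it was 5 of 16, a count that fell under several other settings, as given at the end. The strongest was gei-4, with an intronic peak of joint signal 244 and replicate values of 113 and 124. It was followed by mep-1, which encodes a zinc finger protein, with 88.3, by lin-15B with 80.6, by lin-13 with 76.8 and by lin-36 with 69.3. The mep-1 summit lay in exons of M04B2.11 and M04B2.13, and the lin-36 summit in an exon of F44B9.11. None of the 4 synMuv A genes had a passing summit. Of the 5 genes of the E2F, DP and Rb family only lin-35 did, and efl-2 and efl-3, the other E2F genes, had highest joint signals of 23.7 and 29.5.

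In the list of other LIN-53 complexes and their relatives, which also holds the paralog rba-1, it was 1 of 10, egl-27, with a joint signal of 85.8 in an intron. Of the 28 cell cycle regulators 3 were bound. These were cye-1, the cyclin E gene, with a joint signal of 137 and replicate values of 74.0 and 69.7, mdf-2 with 133 and mdf-1 with 79.6, the latter both spindle checkpoint genes. The cye-1 and mdf-2 summits lay inside the gene, that of cye-1 in an intron and also in an exon of WBGene00022955. Of 30 DNA replication genes 2 were bound, pcn-1, the sliding clamp PCNA, with 159 at 233 bp upstream, and rfc-4, a clamp loader subunit, with 112 in a promoter shared with eef-1A.1. The replicate values of rfc-4, 84.1 and 27.5, were further apart as a ratio, though not as a difference, than those of lin-54. Medians of the highest joint signal over these lists ran from 35.96 to 45.7, against 83.2 over the DREAM genes and 32.3 over all genes.

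**Figure D4:**
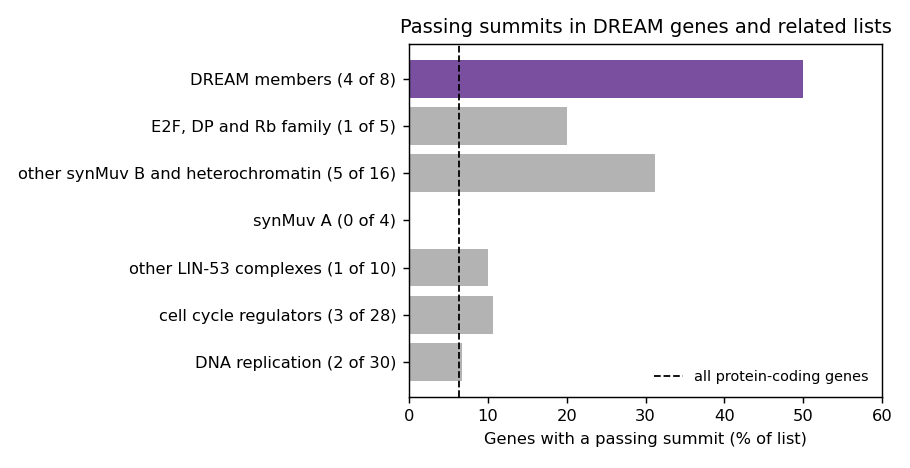
Share of each gene list with a passing summit in the window, in percent of the list, with counts beside each name. The purple bar is the 8 DREAM genes, which were chosen with peak signals in view, grey bars are the other lists, and the dashed line is the 6.39% of all protein-coding genes. The bars run from 0 of 4 synMuv A genes to 4 of 8 DREAM genes.

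The plot of shares by list includes 3 DREAM genes again in the E2F, DP and Rb family, and let-418 in 2 of the lists, so the bars are not independent. By signal in the 2 replicates, 924 genes with a promoter summit were compared with lin-54. The closest was rpl-12, which has the same peak. It was followed by madf-9 itself, with 175 and 125 and a joint signal of 307, its summit 279 bp upstream, and by ifet-1, which encodes a partner of the cap-binding protein eIF4E, with 172 and 102 and a joint signal of 272, its summit 506 bp upstream. The distances from lin-54 were 0.14 and 0.16 on the log2 scale over the 2 replicates.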

How the data were processed

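MADF-9 ChIP-seq of L4 worms gave the peak lists analysed, from 2 biological replicates, per the labels, on the ce11 assembly. Nothing else in the labels says how the replicates were kept apart. No reads or counts were used, so depth is unknown. The sources used here do not give the aligner or peak caller. Per the file contents, the deposited score of each region is the scaled IDR, at most 1000. The deposited signal of each region is the strength given by the caller, with its scale unstated, and was ranked within a list. Ratios and overlaps of replicate values compare across lists and rest on that unstated scale. The deposited −log10 IDR values stop at 5 and the deposited −log10 q values were read only. The authors' joint signal comes from pooled data and carries no error, and a replicate's signal at a joint region was taken from the overlapping region of its own ranked list (at least 1 bp). Of the ranked regions at a score of 830 or more, 115 were not in the deposited joint set, and none of them was at a DREAM gene.

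The members and lists were chosen with earlier results of these data known. Windows used Ensembl release 115 on WBcel235, and words and sequences the RefSeq genome of that assembly. Named were the 8 genes, genes that share a member's passing summit in their promoter, up to 6 bound genes of each list by signal, the 3 genes nearest lin-54 by replicate signals, and the nearest passing peak to each unbound member. Named outside this rule, after their values were seen, were rba-1, efl-2, efl-3, ZK418.5 and ZK632.9, all without a passing summit. Genes that overlap a region or summit were also named, to give its place. The symbol cdc-45 was not found in the annotation. Python 3.11.15, pandas 2.3.3 and numpy 2.4.6 were used, and the window count was tested on simulated data. Alternatives were other sets, windows, thresholds, word distances and leaving out each replicate.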

Additional observations from a re-analysis of the deposited data

How the results depend on the processing

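The count of bound DREAM genes was 4 in the pooled set, among the upper 50% of peaks by signal, and with every window tried, ran from 3 to 5 when each replicate's own set stood in for the joint one, and was 3 with the nearest start only, an alternative chosen after seeing the data. The share of all genes ran from 3.38% to 4.18% without a replicate, and was 3.59% for the upper 50% of peaks by signal and 3.49% for promoters of 500 bp upstream to 100 bp downstream. The 12 bound genes of the other lists, lin-35 among them, became 5 to 9 without a replicate. They became 6 for the upper 50% of peaks and 6 for the shorter promoters. With 2000 bp upstream to 500 bp downstream plus the gene body they became 16, beside 8.04% of all genes. They were also 16 with the nearest start only, and in each of these last 2 settings 1 synMuv A gene was bound. The 5 bound genes among other synMuv B and heterochromatin genes became 3 in the pooled set and 2 in each replicate's own set. They became 1 for the upper 50% of peaks and 2 for the shorter promoters. With the promoter alone they were 4, and in every other setting 5. In replicate 1's own set the lin-54 signal was 175, ranked 26 of 1002, with the summit at -356 bp. In replicate 2's own set it was 114, ranked 70 of 806, with the summit at -373 bp. These are values of single replicates, whereas the 289 at rank 40 of 1637 came from pooled data. E2F-type words fell from 4 genes to 0 within 50 bp of the summit and stayed at 4 within 150 bp, distances chosen after seeing the data. No share over all peaks is given at these 2 distances, so nothing is read from the change. Over these main results 30 values stayed near the reported one, within 1.5 times for counts and shares, and 13 moved further, and over single lists and genes 55 stayed near and 21 moved. The cause was not tested. No paired analysis was possible because there was 1 group. With no read counts the counting error of each signal is unknown, and 2 replicates give a weak estimate of the spread.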
